A study of Mus musculus with 24 samples.

Results

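The 36 genes described here encode the antigen presentation machinery of the mouse and a set of genes switched on by interferon gamma. They were taken by symbol from the count files, and all 36 were found among 55414 gene rows and passed the filter on low counts that left 19616 genes for testing. By role, 20 belong to the MHC class I pathway, 9 to the class II pathway and 7 to the interferon gamma inducible group, and 20 of the 36 lie on chromosome 17, which carries the mouse MHC. The libraries came from LSK cells, bone marrow cells that lack lineage markers and carry Sca-1 and Kit, sorted from pups of C57BL/6J dams at postnatal day 21. The pups were female offspring of dams on a Western diet, female offspring of control dams on chow, male offspring of Western diet dams and male offspring of control dams, with 6 libraries in each group and 24 in all. The dams ate their assigned diet before mating, through pregnancy and while nursing. The pups carried no engineered allele that the labels name. Each group had 2 libraries in each of 3 batches, with replicates 1 and 2 in batch 1, replicates 3 and 4 in batch 2 and replicates 5 and 6 in batch 3. Dam and litter of each pup are not in the labels. Littermates may be among the libraries, and p-values then reflect only how libraries vary.

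Class I molecules are built from a heavy chain and beta-2 microglobulin and show peptides from inside the cell to CD8 T cells. Proteasomes cut those peptides, TAP pumps them into the endoplasmic reticulum, tapasin loads them, and NLRC5 switches on the genes. Class II molecules show peptides from engulfed proteins to CD4 T cells, their invariant chain CD74 holds the groove until loading, and CIITA switches on their genes in dendritic cells, B cells and macrophages. Interferon gamma acts, in part through IRF1, on both pathways, and on the guanylate binding proteins and immunity-related GTPases that attack microbes inside cells.

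Library depth ran between 38057263 and 51581968 counts in genes. In every library Kit was present, with a mean of 536 counts per 1000000 gene counts (CPM), and Ly6a, which encodes Sca-1, had a mean of 14.1 CPM. Transcripts of mature cells were present beside them. C1qb, a macrophage gene, had a mean of 123 CPM and Lyz2, a gene of macrophages and monocytes, 166 CPM. The T cell gene Cd3e and the dendritic cell gene Ccl22 had at least 4 counts in each library. The batch 3 libraries of female controls, 2 in number, and the male control library of replicate 1 stood apart for many of the 36 genes. They are described with the levels, and several class medians are given with and without them.

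The promoters of 29 of the 36 genes were matched in RefSeq, build GRCm38.p6, as 34 windows. The 250 bases before each start were searched on both strands for the core of the interferon-stimulated response element (ISRE), which reads GAAA, any 2 bases and GAAA again, for the gamma-activated site (GAS), TTCNNNGAA, and for the Y box, CCAAT, which reads ATTGG on the opposite strand. The ISRE core and the GAS can overlap by sharing a GAA. The following 150 bases before the start, all on the plus strand, are shown because they set a class I light chain, a class I heavy chain, a class II chain and a pair of interferon gamma inducible genes side by side, with the matched motifs in capitals. They span chr2:122147537-122147686 for B2m, chr17:35262944-35263093 for H2-D1, chr17:34305717-34305866 for H2-Eb1, chr11:53769864-53770013 for Irf1 and chr11:58199406-58199555 for Igtp.
B2m: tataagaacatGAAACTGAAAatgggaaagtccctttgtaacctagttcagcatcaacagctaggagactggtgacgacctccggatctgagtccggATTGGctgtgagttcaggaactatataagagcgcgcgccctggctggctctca
H2-D1: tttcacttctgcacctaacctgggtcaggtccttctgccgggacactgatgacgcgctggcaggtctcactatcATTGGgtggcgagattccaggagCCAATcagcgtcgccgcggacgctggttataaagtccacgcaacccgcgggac
H2-Eb1: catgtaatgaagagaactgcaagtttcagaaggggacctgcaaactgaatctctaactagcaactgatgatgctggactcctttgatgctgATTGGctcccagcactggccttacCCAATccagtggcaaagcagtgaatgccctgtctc
Irf1: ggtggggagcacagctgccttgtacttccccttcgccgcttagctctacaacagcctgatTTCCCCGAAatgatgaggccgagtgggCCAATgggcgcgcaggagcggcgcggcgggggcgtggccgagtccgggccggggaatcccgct
Igtp: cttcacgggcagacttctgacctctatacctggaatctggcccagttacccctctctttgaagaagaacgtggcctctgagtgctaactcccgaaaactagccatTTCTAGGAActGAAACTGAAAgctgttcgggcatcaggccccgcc

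In Igtp the GAS match lay 45 to 37 bases before the start and the ISRE core 34 to 25 bases before it. In B2m the ISRE core lay 139 to 130 bases before the start. Over all windows, the ISRE core was found in 5 of 8 windows of interferon gamma inducible members (62.5%), 3 of 19 class I windows (15.8%) and 0 of 7 class II windows, against 2.98% of 32851 RefSeq windows of the same length. The GAS was found in 3 of 8 windows of inducible members (37.5%), 2 of 19 class I windows (10.5%) and 0 of 7 class II windows, against 7.02% of all windows. The Y box was found in 6 of 7 class II windows (85.7%), 13 of 19 class I windows (68.4%) and 3 of 8 windows of inducible members (37.5%), against 33.8% of all windows. Only these exact letters were counted, so a window without a match may still hold a variant of an element. The H2-D1 stretch opens with tttcacttct, which is close to the ISRE core on the opposite strand and was not counted. These matches are letters in a window, and binding was not measured.

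Per kilobase of exon (RPKM), class I genes held the top of the order. B2m, the light chain, averaged 1234 RPKM over the 24 libraries, followed by the heavy chains H2-D1 with 715 RPKM and H2-K1 with 399 RPKM. The highest class II gene was Cd74, the invariant chain, with 369 RPKM, and H2-Ab1, a class II beta chain, averaged 127 RPKM. Psme2, a subunit of the proteasome activator, averaged 173 RPKM. The interferon gamma inducible genes lay lower, between 3.26 RPKM for Iigp1 and 21.6 RPKM for Igtp, both immunity-related GTPases. At the bottom were 4 genes, H2-Q4, H2-Q6 and H2-Q7, which encode non-classical class I chains, with 1.60, 1.25 and 1.13 RPKM, and the class II regulator Ciita with 0.70 RPKM. In 75-base stretches of their transcripts, H2-T22, H2-Q6 and H2-Q7 shared 18.5%, 17.9% and 17% with other genes, and Psme2 shared 22.9%, so their counts are less certain. The library kit does not mark strand. Exons of genes on the opposite strand overlap 29.4% of H2-T22, 22.8% of H2-Oa, 19.1% of H2-Q4, 18.5% of Tap2 and 14.7% of Psmb8, and exons of other genes on either strand overlap 29% of Tapbp. Reads of such pairs cannot be told apart.

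The genes differed in how far they ranged over the 24 libraries. The highest CPM was 1.93 times the lowest for Tapbp, which encodes tapasin, 17.97 times for Iigp1 and 28.1 times for H2-Q6. The median of this ratio was 6.98 in the inducible group, 3.95 in class II and 3.37 in class I. A few libraries set the ends of the range. One of the female control libraries of batch 3 was the lowest library for 19 of 20 class I genes, 6 of 7 inducible genes and 3 of 9 class II genes. The male control library of replicate 1 was the highest for 14 of 20 class I genes, 7 of 7 inducible genes and 2 of 9 class II genes. Class II genes had other extremes: female Western diet libraries of replicates 4 and 5 were the lowest and next lowest for Ciita, Cd74, H2-Ab1 and H2-Ob.

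**Figure D1:**
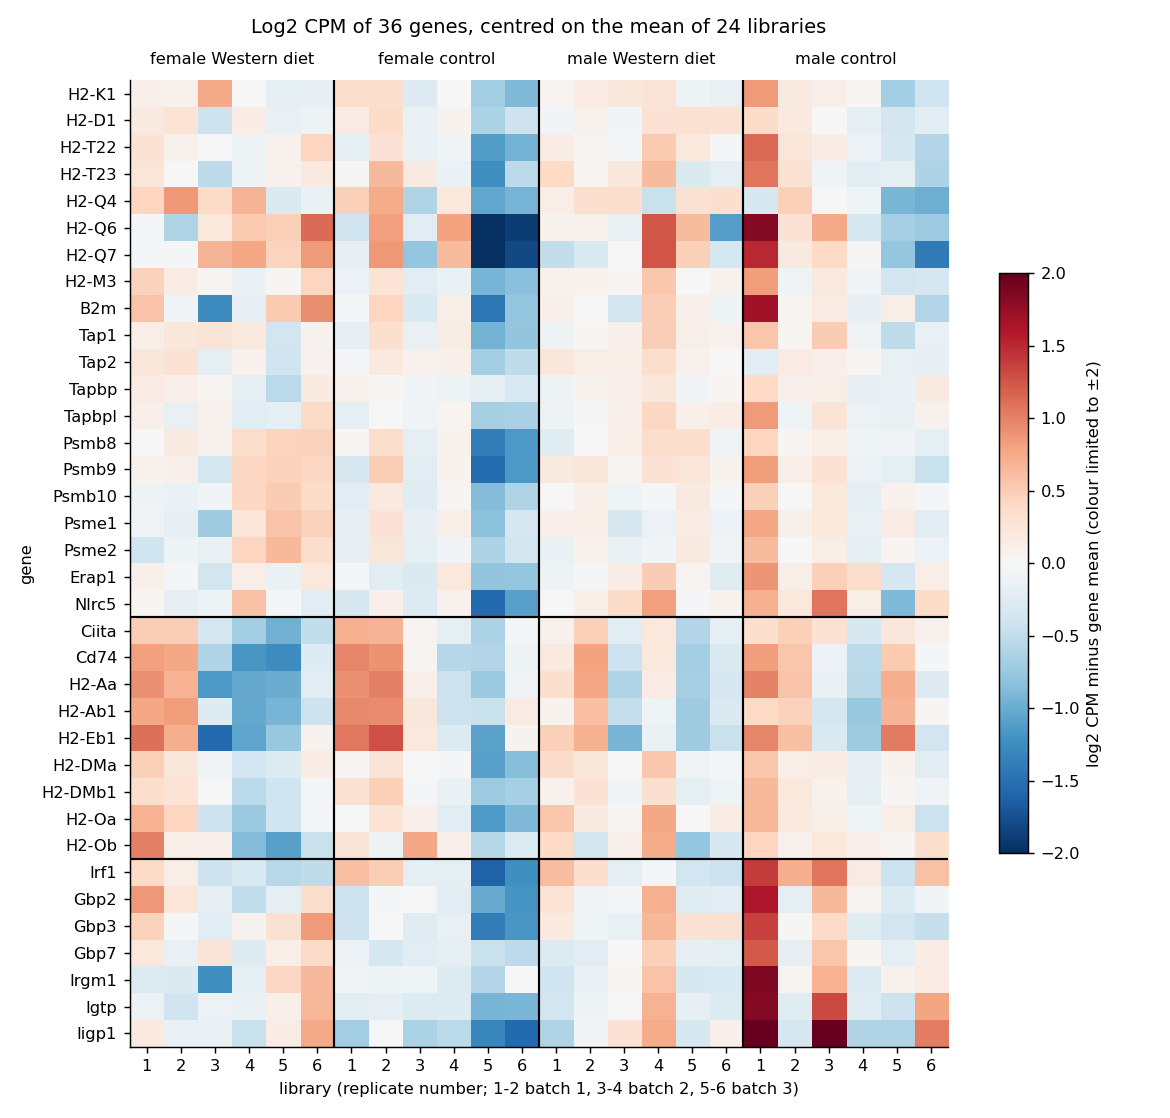
Each row is a gene and each column a library, and colour gives log2 CPM minus the mean of the gene over the 24 libraries, limited to 2 either way. Replicates 5 and 6 of the female controls are blue for nearly all class I and inducible genes, the male control replicate 1 is red, and Ciita, Cd74, H2-Aa, H2-Ab1 and H2-Eb1 are mostly red in batch 1.

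In daughters of Western diet dams set against daughters of control dams, the median estimates of class I and class II genes had opposite signs, but none of the 36 genes passed the test. The groups overlapped in all 36, and the share of all genes whose groups overlap was not counted. The median log2 fold change was 0.40 over the 20 class I genes, all with positive estimates, and -0.34 over the 9 class II genes, of which 6 had negative estimates, while the median of all 19616 genes was 0.03. The 7 inducible genes had a median of 0.51, all with positive estimates. By edgeR's quasi-likelihood test with Benjamini-Hochberg adjustment, 0 of the 36 were called at an adjusted p under 0.05, against a background of 5.42% of all genes (1064 genes). At an unadjusted p under 0.05, 11 of the 36 were higher, against 11.8% of all genes, and 0 lower, against 9.54%. DESeq2 called 1 of the 36, Gbp3, against 9.20% of all genes. The limma-voom fit, here and below with quality weights for each library, called none of them, against 3.70%. Without a filter on low counts edgeR called 16 of the 36, against 5.34% of the genes then tested.

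The heavy chains of class I showed small differences beside their spread. H2-D1 (ENSMUSG00000073411), the class I gene with the highest CPM, had a lowest value of 1361 CPM, a median of 1849 CPM and a highest value of 2194 CPM in Western diet daughters, against 1166, 1771 and 2331 CPM in control daughters. The estimated log2 fold change was 0.09 (SE 0.13), with an adjusted p of 0.782 by edgeR, and the groups overlapped over nearly their whole range. H2-K1, the other classical chain in this strain, ran between 1002 and 1919 CPM with a median of 1162 CPM in Western diet daughters, and between 613 and 1442 CPM with a median of 1033 CPM in control daughters. The value of 1919 CPM belonged to a single library, and the other Western diet libraries reached at most 1206 CPM. The log2 fold change was 0.31 (SE 0.16, edgeR adjusted p 0.261).

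H2-Q7, a non-classical chain of the Qa family, had the largest estimate of class I. It ran between 3.97 and 7.42 CPM with a median of 6.11 CPM in Western diet daughters, and between 0.996 and 7.54 CPM with a median of 3.03 CPM in control daughters. Its log2 fold change was 0.88 (SE 0.45, edgeR adjusted p 0.262), and the highest control library exceeded every Western diet library. The light chain B2m ran between 396 and 1835 CPM with a median of 1140 CPM in Western diet daughters, and between 353 and 1293 CPM with a median of 858 CPM in control daughters. The estimated log2 fold change was 0.49 (SE 0.35, edgeR adjusted p 0.449) and the groups overlapped.

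The immunoproteasome subunits, which replace the standard catalytic subunits under interferon gamma, passed an unadjusted p under 0.05 in daughters but not the adjusted test. Psmb8 ran between 212 and 289 CPM with a median of 253 CPM in Western diet daughters, and between 80.4 and 270 CPM with a median of 200.2 CPM in control daughters. The log2 fold change was 0.56 (SE 0.21, edgeR adjusted p 0.111). Psmb9 and Psmb10 had log2 fold changes of 0.60 and 0.45 with adjusted p of 0.140 and 0.0929. The lowest Psmb8 values, 80.4 and 95.5 CPM, came from the batch 3 control daughters, and the others lay between 186 and 270 CPM. Of the remaining class I genes, the transporter subunits Tap1 and Tap2 had log2 fold changes of 0.33 and 0.16, the loading factors Tapbp and Tapbpl 0.07 and 0.27, and the trimming peptidase Erap1 0.32. The class I regulator Nlrc5 had a log2 fold change of 0.50 (SE 0.22, edgeR adjusted p 0.179).

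Estimates within class II had both signs. The regulator Ciita, the invariant chain Cd74 and the classical chains H2-Aa, H2-Ab1 and H2-Eb1 had log2 fold changes between -0.34 and -0.47. The peptide exchange factor chains H2-DMa and H2-DMb1 and the H2-Oa chain of its inhibitor had 0.29, 0.07 and 0.24, and the partner chain H2-Ob had -0.15. None of the 9 passed an unadjusted p under 0.05, and within batch 3 the difference of H2-Eb1 was 0.16. Cd74 (ENSMUSG00000024610), the class II gene with the highest CPM, had a lowest value of 237 CPM, a median of 420 CPM and a highest value of 996 CPM in Western diet daughters, against 375, 552 and 1110 CPM in control daughters. Its log2 fold change was -0.36 (SE 0.21, edgeR adjusted p 0.348), and 3 of 6 Western diet libraries lay below every control library. H2-Eb1, a class II beta chain with the largest estimate of its class, ran between 15.7 and 99.0 CPM with a median of 37.9 CPM in Western diet daughters. In control daughters it ran between 21.9 and 113 CPM with a median of 51.2 CPM. The estimated log2 fold change was -0.47 (SE 0.28, edgeR adjusted p 0.346).

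Among the inducible genes, the largest estimate in daughters was that of Iigp1, with 10.7 to 24.8 CPM and a median of 14.8 CPM in Western diet daughters and 4.97 to 14.8 CPM and a median of 9.26 CPM in control daughters. The log2 fold change was 0.90 (SE 0.46, edgeR adjusted p 0.265). Gbp3, a guanylate binding protein, ran between 23.2 and 48.6 CPM with a median of 30.9 CPM in Western diet daughters and between 10.3 and 26.8 CPM with a median of 21.5 CPM in control daughters. Its log2 fold change was 0.82 (SE 0.28, edgeR adjusted p 0.0857), and 4 of 6 Western diet libraries exceeded every control library. Gbp7, the inducible gene with the highest mean CPM, had 88.1 to 138 CPM in Western diet daughters and 73.2 to 96.7 CPM in control daughters, with a log2 fold change of 0.43 (SE 0.19, edgeR adjusted p 0.192). Irf1, the transcription factor, had a log2 fold change of 0.10 (SE 0.19), with medians of 50.6 CPM and 57.1 CPM in Western diet and control daughters.

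**Figure D2:**
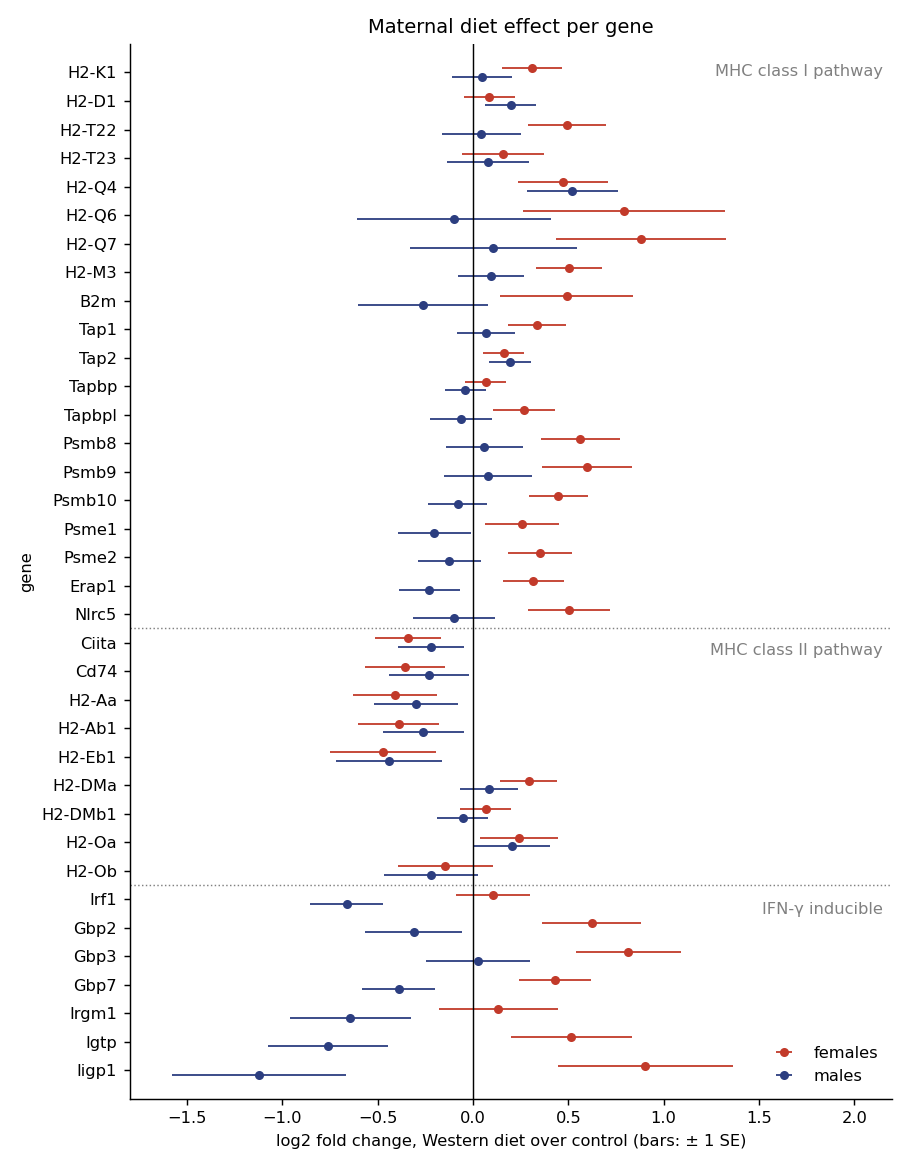
Points are log2 fold changes of Western diet over control offspring from edgeR, bars are 1 standard error either way, and daughters and sons have their own colour. In daughters the class I and inducible genes lie right of 0, with medians of 0.40 and 0.51, and in sons 6 of 7 inducible genes lie left of it.

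The difference in daughters was unequal over batches. Within batches 1, 2 and 3, the median class I difference in mean log2 CPM was 0.03, 0.09 and 1.05, and that of the inducible genes 0.27, 0.12 and 1.17. The class II median was -0.14, -0.55 and -0.20. Without both female control libraries of batch 3, the median log2 fold change was 0.16 for class I and 0.39 for the inducible genes, and was -0.41 for class II. Without the Western diet library of replicate 6 the inducible median was 0.33. With batch 3 left out altogether the class I median was 0.05. Fitted to batch 3 alone, with 2 libraries a group, edgeR called 22 of the 36, all higher in Western diet daughters, against 14.0% of all genes. With batch 1 left out it called 5 of the 36 (H2-K1, H2-Q7, Psmb8, Psmb10 and Psme2), all higher, against 9.36% of all genes.

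**Figure D3:**
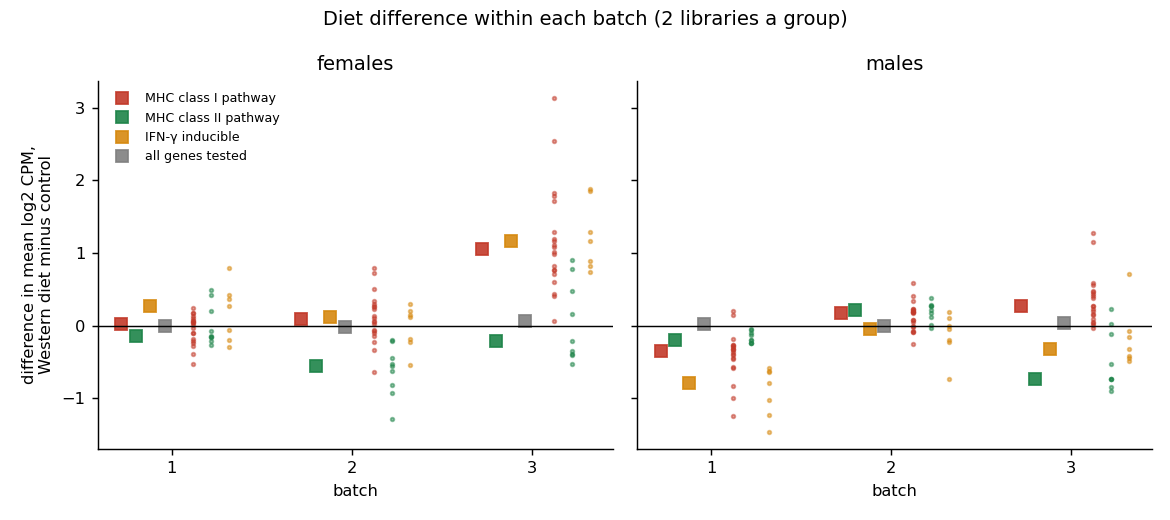
Squares are medians over the genes of each class, and over all genes tested, of the difference in mean log2 CPM between Western diet and control libraries within a batch. Small points are single genes. In daughters the class I and inducible medians are 1.05 and 1.17 in batch 3 and at most 0.27 in batches 1 and 2.

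Set side by side in each library, class I minus class II (means of log2 CPM centred on each gene) gave no clean separation of the diets. In Western diet daughters it was -0.61 and -0.46 in batch 1, 0.40 and 1.04 in batch 2 and 0.88 and 0.50 in batch 3. In control daughters it was -0.65 and -0.30, -0.38 and 0.35, and -0.32 and -0.54 in the same batches. Within batches 2 and 3 both Western diet libraries exceeded both control libraries, and in batch 1 they did not. In Western diet sons it was -0.27 and -0.34, 0.32 and 0.10, and 0.64 and 0.14, against 0.12 and -0.23, 0.27 and 0.27, and -0.70 and -0.21 in control sons. In sons both Western diet libraries lay below both control libraries in batch 1, overlapped with them in batch 2 and lay above them in batch 3.

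In sons of Western diet dams set against sons of control dams, class I genes centred on 0 and the inducible genes lay lower. The median log2 fold change was 0.05 over class I, with 11 positive and 9 negative estimates, -0.22 over class II, with 7 of 9 negative, and -0.64 over the inducible genes, with 6 of 7 negative. Single libraries moved the class medians: class II was -0.08 without control replicate 5 and -0.38 without Western diet replicate 4, and class I lay between -0.07 and 0.14 and turned negative without control replicate 2, 4 or 5 or Western diet replicate 4 or 5. The edgeR test called 0 of the 36, against 0.0102% of all genes (2 genes), and at an unadjusted p under 0.05 it passed 1 as higher, H2-Q4, against 3.17% of all genes, and 3 as lower, Irf1, Igtp and Iigp1, against 5.28%. DESeq2 and limma-voom also called 0 of the 36, against 0.505% and 0.571% of all genes. H2-Q4, with the largest class I estimate in sons, ran between 2.83 and 4.92 CPM with a median of 4.83 CPM in Western diet sons, and between 1.95 and 5.40 CPM with a median of 3.37 CPM in control sons. The estimated log2 fold change was 0.52 (SE 0.24, edgeR adjusted p 0.568). H2-Eb1 again had the largest estimate of class II, -0.44 (SE 0.28, edgeR adjusted p 0.689).

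Iigp1 ran between 9.60 and 24.7 CPM with a median of 14.9 CPM in Western diet sons, and between 9.61 and 89.3 CPM with a median of 20.7 CPM in control sons. The log2 fold change was -1.12 (SE 0.46, edgeR adjusted p 0.502), and the control sons were split, with 89.3, 62.6 and 29.8 CPM in 3 libraries and at most 11.6 CPM in the others. Igtp showed the same control libraries on top, with 139, 98.1 and 67.9 CPM. Irf1 ran between 48.2 and 99.99 CPM with a median of 60.0 CPM in Western diet sons, and between 48.2 and 171 CPM with a median of 103 CPM in control sons. Its log2 fold change was -0.66 (SE 0.19, edgeR adjusted p 0.278). Within batches 1, 2 and 3 the median difference of the inducible genes in sons was -0.78, -0.05 and -0.32. Without the male control library of replicate 1 the median log2 fold change was -0.21, and with batch 1 left out -0.16.

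**Figure D4:**
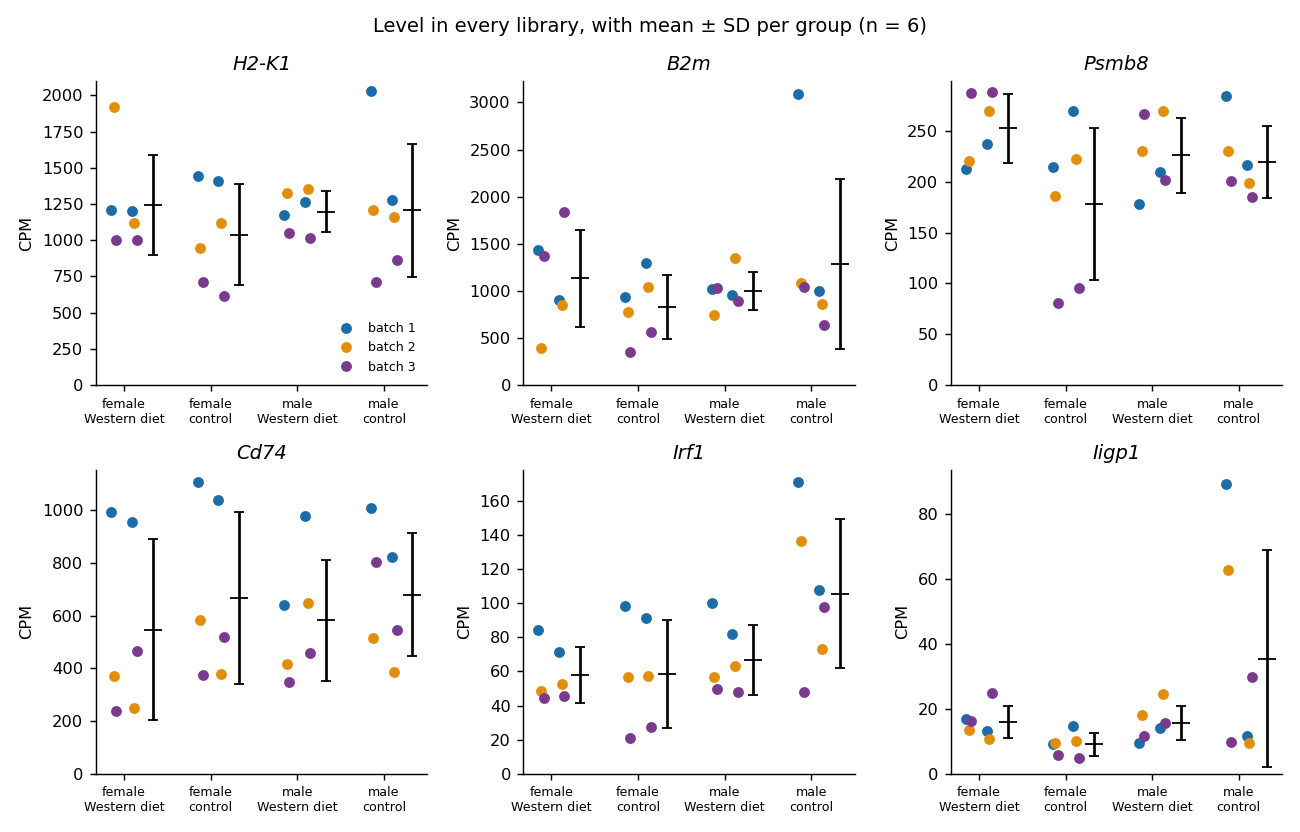
Each point is the CPM of a library, coloured by batch, and the bar beside each group gives its mean and SD over 6 libraries. Psmb8 is lowest in both batch 3 female controls, Cd74 has its highest value in batch 1 in every group, and Iigp1 reaches 89.3 CPM in a male control library while no Western diet library exceeds 24.8 CPM.

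The test of the difference between the diet effects, daughters minus sons, called 0 of the 36 and 0 of all genes (0%) with edgeR. At an unadjusted p under 0.05 it passed 7 of the 36, all positive, against 4.19% of all genes in that direction. They were Psmb10 and Erap1 of class I and Irf1, Gbp2, Gbp7, Igtp and Iigp1 of the inducible genes. DESeq2 called 0 of the 36, against 0.0204% of all genes, and limma-voom 0, against 0%. The median difference was 0.82 over the inducible genes, all positive, 0.45 over class I and -0.03 over class II. The class I median was 0.28 without the male control library of replicate 1 and 0.19 without both female controls of batch 3, and that of class II lay between -0.20 and 0.13, on both sides of 0, with a library left out. For Iigp1 it was 2.03 (SE 0.64, edgeR adjusted p 0.589) and for Igtp 1.28 (SE 0.45, edgeR adjusted p 0.589). Without a filter on low counts edgeR called 8 of the 36, against 1.51% of genes. As the mean of the daughters' and sons' effects, 0 of the 36 were called, against 5.70% of all genes, and at an unadjusted p under 0.05 Ciita, H2-Aa, H2-Ab1 and H2-Eb1 were lower and H2-Q4, H2-M3, Tap2, Psmb8 and Gbp3 higher, against 9.49% and 11.1% of all genes in those directions. DESeq2 called H2-Q4 in that comparison, against 9.09% of all genes, and limma-voom none of the 36, against 7.67%.

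Between control daughters and control sons, Irf1 (ENSMUSG00000018899) was the 1 member that edgeR called, against 0.112% of all genes (22 genes). It ran between 21.1 and 98.5 CPM with a median of 57.1 CPM in control daughters, and between 48.2 and 171 CPM with a median of 103 CPM in control sons, and the groups overlapped. It was 1.95-fold lower in daughters, with a log2 fold change of -0.96 (SE 0.19, edgeR adjusted p 0.0492). The call was lost without a batch term (log2 fold change -0.85, edgeR adjusted p 0.472), with the replicate block (edgeR adjusted p 0.0863), with only the groups compared (0.0791), with batch 1, 2 or 3 left out (0.0973, 0.290 and 0.182) and without both female control libraries of batch 3 (log2 fold change -0.66, edgeR adjusted p 0.584). It was kept by DESeq2 (adjusted p 0.00166) and limma-voom (adjusted p 0.0404). DESeq2 called 5 of the 36 (Irf1, Igtp, Iigp1, Erap1 and Nlrc5), all lower in daughters, against 1.41% of all genes, and limma-voom 1, against 0.688%. The edgeR call of Irf1 was also lost in 14 of the 24 fits that left out a single library, with adjusted p between 0.0189 and 0.175 over the 24.

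At an unadjusted p under 0.05, all 7 inducible genes, 7 of 20 class I genes and 1 of 9 class II genes, H2-DMa, were lower in control daughters, against 7.15% of all genes. The median log2 fold changes were -0.87, -0.35 and -0.12 for the inducible, class I and class II genes. Without both female controls of batch 3 they were -0.71, -0.11 and -0.01, and without the male control library of replicate 1 they were -0.56, -0.19 and -0.16. The class II median was also -0.07 and -0.03 without control daughters of replicate 4 and 5, -0.23 without replicate 3, and -0.22 and -0.0078 without control sons of replicate 2 and 5. The largest estimate was that of Iigp1, -1.96 (SE 0.46, edgeR adjusted p 0.105), with medians of 9.26 CPM in control daughters and 20.7 CPM in control sons. Between the Western diet groups, daughters against sons, edgeR called 0 of the 36, against 0.0816% of all genes. There 0 of the 36 passed an unadjusted p under 0.05, where 6.75% of all genes did, DESeq2 called 0, against 0.184%, and limma-voom 0, against 0.112%. The class medians were 0.04, -0.14 and 0.07 for class I, class II and the inducible genes, and with a library left out they lay between -0.11 and 0.09, -0.27 and -0.04, and -0.16 and 0.22. The comparisons by diet and by sex share their libraries, so the lower values of control daughters enter both.

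Class II genes differed by batch, with their highest means in batch 1. Over both batch terms edgeR called 15 of the 36 against 24.2% of all genes, namely 8 of 9 class II genes, 6 of 20 class I genes and 1 of 7 inducible genes. Cd74 averaged 944 ± 147, 444 ± 130 and 470 ± 169 CPM in batches 1, 2 and 3 (SD, n = 8 each), with an edgeR adjusted p of 0.000111. H2-Aa averaged 178, 79.0 and 88.1 CPM and H2-Eb1 85.8, 32.8 and 42.4 CPM. Ciita averaged 8.90, 5.88 and 5.29 CPM, with an edgeR adjusted p of 0.00106. H2-Ob alone of class II was not called (edgeR adjusted p 0.0547). Irf1 averaged 101 ± 30.6, 68.1 ± 28.6 and 47.8 ± 22.8 CPM (SD, n = 8 each, edgeR adjusted p 0.000173), and H2-K1 1375, 1269 and 870 CPM. The 6 class I genes called were H2-K1, H2-T23, H2-Q4, Tap1, Tap2 and Nlrc5.

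Markers of mature cells and of LSK progenitors moved with batch as well. The summed CPM of the 13 macrophage and monocyte markers had medians of 1429, 642 and 666 in batches 1, 2 and 3, that of the 13 dendritic cell markers 879, 756 and 533, and that of the 14 B cell markers 1218, 958 and 770. For batch, edgeR called 10 of 13 macrophage and monocyte, 10 of 13 dendritic cell and 12 of 14 B cell markers, against 24.2% of all genes. It also called 6 of 8 LSK progenitor markers and 6 of 8 mature erythroid markers. Of the T, NK and innate lymphoid, neutrophil and endothelial markers it called 7 of 13, 4 of 8 and 1 of 5. Flt3, Irf8 and Bst2, with means of 321, 257 and 92.9 CPM, made up most of the dendritic cell sum, and Flt3 is also among the listed markers of LSK progenitors. The other 10 dendritic cell markers had means of 0.53 to 12.1 CPM. Ighm, with a mean of 624 CPM, led the B cell sum. In bulk libraries, fewer cells of a type and less RNA per cell cannot be told apart. The part of these markers in the class II levels was not tested.

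The summed dendritic cell markers ran between 484 and 1014 CPM with a median of 566 CPM in Western diet daughters, against 388 to 930 CPM with a median of 799 CPM in control daughters. Of the 13, edgeR called 2 against 5.42% of all genes, Zbtb46 and Ccr9, both lower, with log2 fold changes of -1.07 (adjusted p 0.0300) and -0.63 (adjusted p 0.0265). For Zbtb46 the difference was -0.34, -0.25 and -2.30 within batches 1, 2 and 3. The macrophage and monocyte sum ran between 470 and 1872 CPM with a median of 1107 CPM in Western diet daughters. In control daughters it ran between 489 and 1965 CPM with a median of 662 CPM. Within batches 1 and 2 the diets overlapped, and in batch 3 the sum was 1045 and 1170 CPM against 674 and 608 CPM. Of the 13, 11 had positive estimates, with a median log2 fold change of 0.25, and 0 were called, against 5.42% of all genes. Of 13 T, NK and innate lymphoid markers, 1 was called, Nkg7, as higher (log2 fold change 0.80, edgeR adjusted p 0.00850), against 5.42% of all genes. Their summed CPM, between 314 and 414 in Western diet daughters and 133 and 319 in control daughters, was mostly Nkg7, with a mean of 268 CPM against 0.48 to 17.4 CPM for each of the others. The median log2 fold change of the 13 was 0.18, with 11 positive, and the mean centred log2 CPM of the list ran between -0.47 and 0.33 in Western diet daughters and -1.41 and 0.54 in control daughters. The B cell sum ran between 544 and 2355 CPM with a median of 1175 CPM in Western diet daughters. In control daughters it ran between 392 and 1233 CPM with a median of 774 CPM. All 14 B cell markers had positive estimates, with a median log2 fold change of 0.48. Of them edgeR called 3 as higher, Igkc, Jchain and Cd79b, against 5.42% of all genes. Ly6a, whose product was a sorting marker and which is itself interferon inducible, had a log2 fold change of 1.07 (SE 0.38, edgeR adjusted p 0.0994), and a difference in mean log2 CPM of 2.79 within batch 3. Of the 8 LSK progenitor markers, Ly6a among them, 6 had positive estimates, with a median log2 fold change of 0.45. Mecom was the 1 called, as higher (log2 fold change 0.55, edgeR adjusted p 0.0125), against 5.42% of all genes. The mean centred log2 CPM of this list was -1.08 and -0.82 in the batch 3 control daughters, the lowest of the 24 libraries. It was lowest there too for the B cell list (-1.37 and -1.23) and the T, NK and innate lymphoid list (-1.41 and -1.01). The marker estimates given here include those 2 libraries. The 8 mature erythroid markers all had negative estimates in daughters, with a median log2 fold change of -0.77 and 3 called, against 5.42% of all genes. In sons all 8 were negative too, with a median of -1.26 and 0 called, against 0.0102%. As the mean of both sexes 6 of them were called, against 5.70%. Of 8 neutrophil markers, 7 had positive estimates in daughters, with a median log2 fold change of 0.49. All 5 endothelial markers had positive estimates, with a median of 0.40. In both lists 0 were called, against 5.42% of all genes. The neutrophil marker Ltf was at 0 in 1 library, and no other listed mature-cell marker was at 0 in any library. Their part in the diet differences of the 36 genes was not tested.

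The receptors and messengers of the interferon gamma pathway showed no called difference by diet. Ifng itself was low, with a mean of 0.31 CPM, while the receptor chains Ifngr1 and Ifngr2 averaged 291 and 37.5 CPM. Of 14 signalling genes, 0 were called in daughters or sons, against 5.42% and 0.0102% of all genes. Of 18 further inducible genes that were tested, 17 had positive estimates in daughters, with a median of 0.48, and 17 had negative estimates in sons, with a median of -0.40. None of the 18 was called in either, against 5.42% of all genes in daughters and 0.0102% in sons. Their mean centred log2 CPM was -1.12 and -0.98 in the batch 3 control daughters, and 1.37 and 0.98 in control sons of replicates 1 and 3. Every other library lay between -0.39 and 0.42. Tgtp1, a GTPase of T cells and macrophages, ran between 10.2 and 20.6 CPM in Western diet daughters, against 3.34 to 10.003 CPM in control daughters. It was not called (log2 fold change 1.01, SE 0.41, edgeR adjusted p 0.149), and the share of all genes whose groups do not overlap was not counted.

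Among the factors that act on class II, 2 of 9 were called in daughters, both lower, against 5.42% of all genes. March8, an E3 ubiquitin ligase that removes proteins including class II from the cell surface, ran between 16.6 and 25.1 CPM in Western diet daughters, against 25.2 to 60.4 CPM in control daughters. The groups did not overlap, and the share of all genes whose groups do not overlap was not counted. The highest control values, 60.4 and 49.6 CPM, came from batch 3. The estimated log2 fold change was -0.78 (SE 0.17, edgeR adjusted p 0.00682) in daughters and -0.64 (SE 0.17, edgeR adjusted p 0.219) in sons, and as the mean of both it was -0.71 (SE 0.12, edgeR adjusted p 0.000555). Within batches 1, 2 and 3 the difference in daughters was -0.47, -0.65 and -1.16. Nfyc, a subunit of the factor that binds the Y box, had a log2 fold change of -0.44 (SE 0.13, edgeR adjusted p 0.0408) in daughters, with -0.17, -0.30 and -0.89 within the batches. Of 11 chaperones and class II proteases, 0 were called in daughters or sons, against 5.42% and 0.0102% of all genes. Ifi30, a lysosomal reductase that prepares antigens for class II, was the 1 called as the mean of both sexes, against 5.70%. It was lower (log2 fold change -0.44, SE 0.12, edgeR adjusted p 0.0309). Of 10 tested MHC-like genes, 0 were called by diet, against 5.42%, 0.0102% and 5.70% of all genes in daughters, in sons and as the mean of both.

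Levels of the class II regulator and of its target Cd74 went together over the libraries. Over 24 libraries, log2 CPM of Ciita and Cd74 had a Pearson r of 0.95 and a Spearman rho of 0.95, each with a permutation p of 1e-05, the smallest that 100000 permutations can give (adjusted over 5 relations 5e-05). Within batches 1, 2 and 3 the r was 0.84, 0.94 and 0.94 over 8 libraries each (exact permutation p 0.0115, 0.00196 and 0.000322), and without the 2 libraries farthest from the median of Ciita it was 0.93. For Nlrc5 and H2-K1, r was 0.65 (permutation p 0.00082, adjusted 0.00192) and rho 0.51 (permutation p 0.0125, adjusted 0.0308). Within the batches r was 0.70, 0.03 and 0.80 (exact permutation p 0.0960, 0.955 and 0.0193), so it passed a p under 0.05 in batch 3 alone, and it was 0.42 without the 2 farthest libraries. The crossed pairs gave r of 0.03 for Nlrc5 and Cd74 (permutation p 0.882, rho 0.05 with permutation p 0.803) and 0.32 for Ciita and H2-K1 (permutation p 0.124, rho 0.48 with permutation p 0.0185, adjusted 0.0308). Irf1 and Igtp had r of 0.63 (permutation p 0.00115, adjusted 0.00192) and rho of 0.36 (permutation p 0.0881, adjusted 0.110), with 0.86, 0.81 and 0.83 within batches (exact permutation p 0.0599, 0.0356 and 0.0164) and 0.41 without the 2 farthest libraries. The p over 24 libraries permute across batches. These libraries share batches and groups, and the coefficients describe levels of RNA only.

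**Figure D5:**
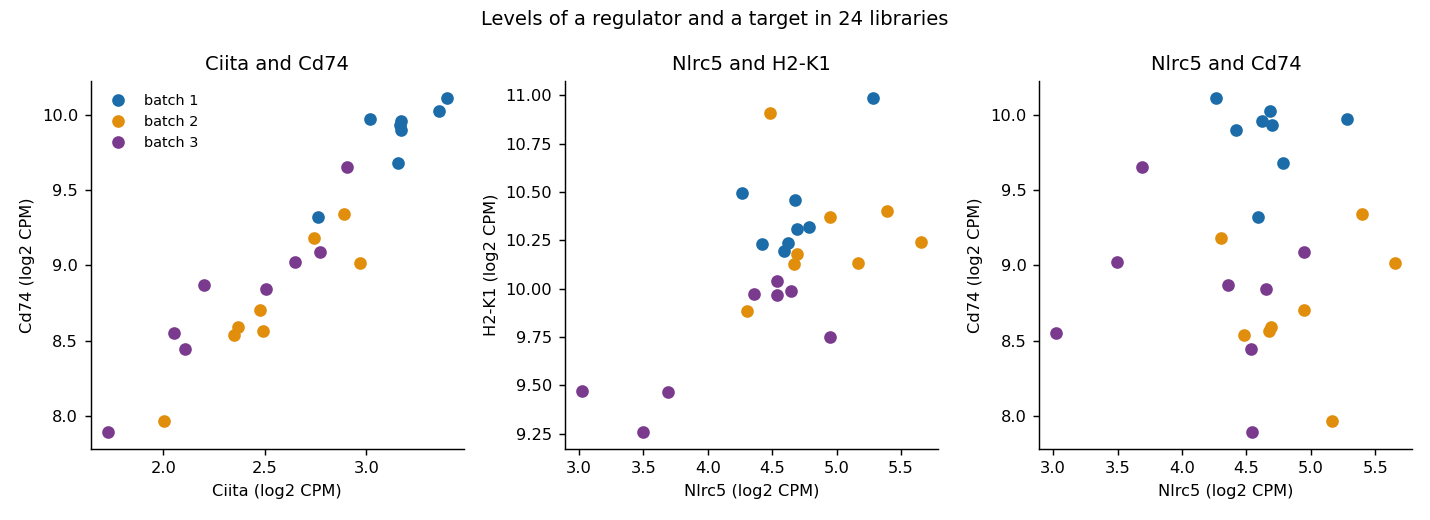
Points are libraries coloured by batch, with log2 CPM of a regulator on the horizontal axis and of a target on the vertical. Ciita and Cd74 lie along a line in every batch (r of 0.95 over 24 libraries), Nlrc5 and H2-K1 scatter more widely (0.65, and 0.03 within batch 2), and Nlrc5 and Cd74 show no line (0.03).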

How the data were processed

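Raw counts of reads per gene were deposited by the authors, 1 file for each of 24 libraries. The tools FastQC, cutadapt, STAR, HTSeq and DESeq2 and the build GRCm39 stand in the submitters' processing notes. Tool versions, annotation and strand setting were not given in the sources used here. Per the labels' protocols, lineage-depleted marrow was sorted for LSK cells and libraries were made from polyA RNA with a low input kit. Closing lines for reads assigned to no gene (31.0% to 39.3% of each file) stayed out. Ensembl IDs were given symbols and exon lengths from GENCODE M21 (GRCm38), for 52081 of 55414 rows, so RPKM and exon overlaps rest on that annotation. Counts were filtered by filterByExpr, scaled by TMM (factors 0.932 to 1.05) and fitted in edgeR 4.0.16 (R 4.3.3) with robust quasi-likelihood on group and batch over 24 libraries, with p-values adjusted by Benjamini-Hochberg over 19616 genes. CPM used TMM-scaled library sizes, and log2 CPM a prior count of 2. Alternatives were DESeq2 1.42.0 and limma-voom (limma 3.58.1), which was run with quality weights for each library. Another scaling, other filters, no batch term, a replicate block, fewer groups, each batch or library left out and each batch alone were also alternatives. The genes and lists were chosen with earlier results of these data known. Named in full were called members and, per class, those with the highest mean CPM or the largest diet estimate in daughters and in sons; further members were named for their role, and from the other lists genes called by diet, with some named after their values were seen. Promoters came from RefSeq (GRCm38.p6).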

Additional observations from a re-analysis of the deposited data

Results flagged for a closer look

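Over 144 sets of 6 libraries (36 genes in 4 groups), 19 held a library whose gap to its nearest neighbour exceeded 0.625 of the range. That is Dixon's 95% critical value for 6 samples, and chance flags about 1 in 20 independent sets of normal values. These sets held CPM from 3 batches and shared their libraries, so that rate is only a rough guide. In the male control library of replicate 1, the highest values were 93.3 CPM for H2-T22, 7.70 CPM for H2-Q6, 49.5 CPM for H2-M3 and 3090 CPM for B2m. The same library was highest with 68.8 CPM for Tapbpl, 353 CPM for Psme1, 461 CPM for Psme2, 65.8 CPM for Gbp2, 69.6 CPM for Gbp3 and 227 CPM for Irgm1. In the male Western diet library of replicate 4, H2-M3 (40.2 CPM), Tap1 (222 CPM), Gbp7 (147 CPM), Irgm1 (93.0 CPM) and Igtp (63.2 CPM) stood above the other 5 libraries and H2-Q4 (2.83 CPM) below them. Among Western diet daughters, H2-K1 was high in replicate 3 (1919 CPM), Nlrc5 was high in replicate 4 (35.8 CPM) and Tap1 was low in replicate 5 (122 CPM).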

How the results depend on the processing

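No result changed direction while called. Class medians and single members are summarised as counts over all alternatives. A class median, or a member called in neither fit, was counted as the same if it shifted by less than its residual SD between libraries. Shifts within that spread were therefore not counted, and many alternatives left out only a single library. Of the class medians, 672 values were counted as the same and 24 as moved. Of the single members, 7977 values were counted as the same, 246 moved, 105 became called and 24 lost a call. The lost calls were all for Irf1 between the control groups. Estimates that were not called could change sign. With a library left out, the Irgm1 log2 fold change for diet in daughters lay between -0.06 and 0.30. The cause of these shifts was not tested.

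Of all genes, diet in daughters called 1064, and 2023 with no filter, 404 with no batch term, 358 with only the groups compared, 1839, 297 and 146 with batch 1, 2 or 3 left out, 0, 22 and 2719 within batch 1, 2 or 3, 154 without both female control libraries of batch 3 and 1805 with DESeq2 (504 to 1386 with a library left out). Members called there numbered 0, and 16 with no filter, 5 with batch 1 left out, 22 within batch 3 and 1 with DESeq2 (0 to 4 with a library left out). The class I minus class II median was 0.74, and 1.13 with batch 1 left out, 0.14 within batch 1 and 1.22 within batch 3 (0.61 to 0.89 with a library left out).

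Diet in sons called 2, and 380 with no filter, 10 with the stricter filter (at least 1 CPM in 6 libraries), 0 with no batch term, 1 with the replicate block, 1 with only the groups compared, 1, 1 and 0 with batch 1, 2 or 3 left out, 0 within each batch, 99 with DESeq2 and 112 with limma-voom (1 to 13 with a library left out). Members called numbered 4 with no filter (0 to 0 with a library left out), and the class I minus class II median was 0.27, and -0.20 with batch 3 left out, -0.19 within batch 1 and 0.97 within batch 3 (0.05 to 0.40 with a library left out). The mean of both sexes called 1118, and 1693 with no filter, 466 with no batch term, 556 and 143 with batch 2 or 3 left out, 0, 1 and 1781 within batch 1, 2 or 3, 447 without both female control libraries of batch 3 and 1784 with DESeq2 (716 to 1464). Members called numbered 0, and 7 with no filter, 4 with batch 1 left out, 14 within batch 3 and 1 with DESeq2 (0 to 2), and the class difference was 0.46, and 0.072 with batch 3 left out, -0.066 within batch 1 and 1.08 within batch 3 (0.37 to 0.54).

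The difference between daughters' and sons' diet effects called 0, and 572 with no filter, 1 within batch 1, 1 within batch 3 and 4 with DESeq2. Members numbered 8 with no filter, and the class difference was 0.48, and 0.89 within batch 2 (0.29 to 0.68). Control daughters against control sons gave 22, and 1296 with no filter, 8 with no batch term, 13 with the replicate block, 111 with only the groups compared, 7 and 9 with batch 2 or 3 left out, 10, 6 and 8 within batch 1, 2 or 3, 9 without both female control libraries of batch 3, 276 with DESeq2 and 135 with limma-voom (13 to 107). Members numbered 1, and 11 with no filter, 5 with DESeq2 and 0 with the replicate block, no batch term, only the groups compared, any batch left out, any batch alone or without both female control libraries of batch 3 (0 to 1); the class difference was -0.35 to -0.03 with a library left out. Western diet daughters against sons gave 16, and 283 with no filter, 10 with no batch term, 9 with only the groups compared, 123 with batch 1 left out, 7 within batch 1 and 36 with DESeq2 (10 to 23), with a class difference of 0.10 to 0.33 with a library left out. Batch called 4753, and 2805 and 1200 with batch 1 or 3 left out and 2946 without both female control libraries of batch 3 (3702 to 5123). Members called for batch numbered 15, and 24 with no filter, 4 and 6 with batch 1 or 3 left out and 8 without both female control libraries of batch 3 (13 to 19).

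Same-numbered libraries of different groups had correlations of their deviations between -0.25 and 0.35, not all over 0.1, so the numbers were not taken to pair them. With the replicate block, diet in daughters called 827 genes and Irf1 between the control groups had an edgeR adjusted p of 0.0863. Ifng, at 0.31 CPM on average, rests on few counts.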
